A study of Mus musculus with 10 samples.

Results

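S100 proteins and annexins are calcium-responsive proteins that act at membranes and on the cytoskeleton, and 10 of their genes were followed here in mouse splenic B cells separated into IL-10 secreting and non-secreting fractions. The genes were S100a4, S100a6, S100a10, S100a11 and S100a13, and Anxa2, Anxa4, Anxa5, Anxa6 and Anxa7, found by symbol among the 28897 gene names of the array, with 16 of its 45281 probes. They were chosen by symbol with log2 differences between these same groups in view, among which those of S100a6 and Anxa2 had been large. Levels and differences of the 10 genes are therefore a description, with no p-value for any of them.

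Total B cells from spleens of C57BL/6 mice received LPS (10 µg/ml), PMA (50 ng/ml) and ionomycin (500 ng/ml), and the stimulation lasted 5 h. IL-10+ and IL-10- cells were then separated by a kit that captures secreted IL-10, followed by flow sorting to raise purity. The IL-10+ group has 5 arrays, the IL-10- group has 3 and the total B group has 2, and the 10 arrays lie on 2 slides, with both total B arrays on slide 2. The stimulation is stated in a protocol text shared by all samples, and no genotype other than the strain, no age and no pooling of mice is stated for any group. The labels do not tell separate mice from repeat preparations, and the p-values below therefore reflect the spread among these samples alone, possibly a technical one. With so few arrays, precision is limited throughout.

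S100 proteins are small proteins, usually dimers, whose EF-hand loops change shape on binding calcium and then grip target proteins. Annexins bind acidic phospholipids of membranes when calcium rises, and they organise membrane domains, vesicle traffic and membrane repair. The families meet in complexes, of which that of annexin A2 with a dimer of S100A10, also called p11, is the best known. In lymphocytes, high levels of several of these genes are known from effector and memory states, and LPS, PMA and ionomycin act through Toll-like receptor, protein kinase C and calcium signalling.

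Il10, whose product set the sort, ran from 12.90 to 13.65 log2 on IL-10+ arrays and from 7.55 to 7.92 on IL-10- arrays, and stood at 10.63 and 9.89 on total B arrays, so it separated the groups as labelled. Between 13910 and 15610 probes were detected per array. Of 5 B cell markers with a probe, 4 were detected on every array, and Pax5 was undetected on both total B arrays. T cell genes Cd3d, Cd3e, Cd4, Cd8a and Thy1 were undetected on all arrays, as were all 4 natural killer cell genes. Of the 8 T cell genes with a probe, Cd28 and Cd3g were detected on some IL-10+ arrays, and Lat on some IL-10- and total B arrays. Among them 2 were detected on at least 2 arrays. Limma called 1 higher in IL-10+ than in IL-10- cells, at 0.995 log2, beside 9.12% of all genes (adjusted p under 0.05). Against total B cells it also called 1 higher, at 0.894 log2, beside 12.0% of all genes. Cd28 and Cd3g were undetected on all IL-10- and total B arrays, and Lat on all IL-10+ arrays. The 0.995 and 0.894 are therefore fitted values that rest on undetected arrays. With undetected arrays raised to the lowest detected signal, the median of the 2 genes was 0.24 and 0.01 log2 in these comparisons. It was 0.27 and 0.39 as fitted. In bulk samples, fewer cells of a type and less RNA per cell cannot be told apart.

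Of the 10 genes, 9 had a probe detected on at least 2 arrays and entered the fit with 11185 genes in all. S100a4, which codes for a regulator of myosin and cell motility, was the exception. Its probe was detected on IL-10+ replicate 1, at 6.71 log2, and on no other array, where it read 4.45 to 5.51. No difference between groups was estimated for it.

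Promoter sequence is shown for the gene with the largest difference, S100a6, and for S100a11 and Anxa2, the listed genes whose upstream bases hold an AP-1 motif. Each line gives the 250 bases before the annotated start, 5′ to 3′, from RefSeq on GRCm38.p6, all on the plus strand, at chr3:90612644-90612893, chr3:93520246-93520495 and chr9:69453433-69453682. Capitals mark matches on either strand to AP-1 (TGANTCA), NF-kB (GGGNNTTCC), NFAT (GGAAAA) or GC box (GGGCGG) letters, and no matches to different motifs overlap in these windows.
S100a6: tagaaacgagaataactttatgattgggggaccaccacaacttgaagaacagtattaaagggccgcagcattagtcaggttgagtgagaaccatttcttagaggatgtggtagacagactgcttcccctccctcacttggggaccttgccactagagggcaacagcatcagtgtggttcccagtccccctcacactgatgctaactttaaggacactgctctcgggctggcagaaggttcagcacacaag
S100a11: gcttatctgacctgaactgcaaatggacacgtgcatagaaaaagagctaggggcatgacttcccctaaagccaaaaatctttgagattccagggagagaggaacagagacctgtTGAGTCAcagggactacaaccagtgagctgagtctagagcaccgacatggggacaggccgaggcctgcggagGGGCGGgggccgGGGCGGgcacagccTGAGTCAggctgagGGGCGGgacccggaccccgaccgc
Anxa2: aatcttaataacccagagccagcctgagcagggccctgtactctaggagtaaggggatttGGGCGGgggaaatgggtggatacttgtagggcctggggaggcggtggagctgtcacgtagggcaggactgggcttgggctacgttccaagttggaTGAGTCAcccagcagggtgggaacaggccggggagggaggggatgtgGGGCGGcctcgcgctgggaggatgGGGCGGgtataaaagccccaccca

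The AP-1 letters, a binding motif of factors that PMA activates, occurred 2 times upstream of S100a11, starting 136 and 38 bases before the start site, and 1 time upstream of Anxa2, starting 95 bases before it. They were found in 6.75% of the 32851 promoters of the same length, and in 2 of the 10 promoters listed for 8 of the 10 genes. The GC box was found 3 times in each of these upstream regions and in 32.7% of all promoters. The S100a6 window held none of the 4 motifs, which says only that these letters are not in these 250 bases. The NF-kB letters were in none of the 10 promoters and in 4.98% of all. The NFAT letters were in 1 of the 10, that of Anxa5, and in 20.4% of all. A match is a description and not a binding site.

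S100a6, or calcyclin, a small calcium sensor of proliferating and activated cells, showed the widest range. On the IL-10+ arrays its log2 level was 10.08, 8.83, 9.10, 9.52 and 10.14. It was 6.15, 6.33 and 6.88 on the IL-10- arrays, and 5.05 and 4.82 on the total B arrays, where the probe was not detected. The 3 groups did not overlap, and total B cells lay lowest. In intensity units before normalization, the IL-10+ arrays read 527.8 to 1470.3, the IL-10- arrays 142.7 to 242.6 and the total B arrays 159.5 and 123.3, so the raw readings of the last 2 groups overlapped.

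The IL-10+ mean of S100a6 exceeded the IL-10- mean by 3.08 ± 0.30 log2 (SE, n = 5 and 3), or 8.46-fold. Within the replicate pairs 2, 3 and 5 the difference was 2.68, 2.77 and 3.26. Against total B cells S100a6 was at least 15.5-fold higher in IL-10+ cells and at least 1.83-fold higher in IL-10- cells, taking the lowest detected signal for the undetected arrays. These bounds rest on the background correction. Without it S100a6 differed by 1.93 log2 between the fractions, by 2.37 between IL-10+ and total B cells and by 0.44 between IL-10- and total B cells.

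**Figure D1:**
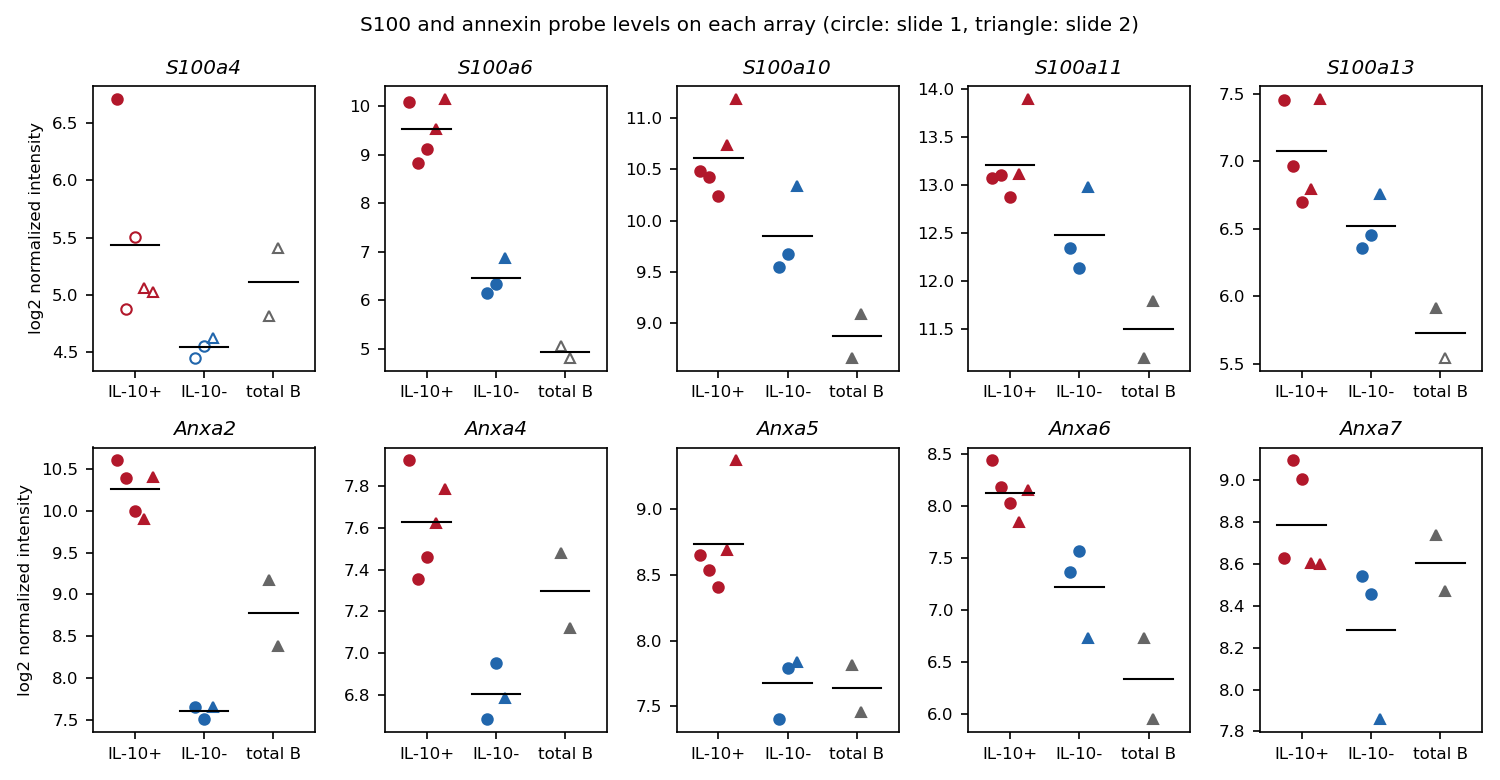
Log2 normalized intensity of each gene's probe on every array, by group, with the group mean as a line, circles for slide 1, triangles for slide 2 and open symbols where the probe was not detected. S100a6 and Anxa2 separate IL-10+ from IL-10- arrays by the widest margins, and S100a4 is detected on 1 array.

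S100a10, the p11 partner of annexin A2, differs from other S100 proteins in that its EF hands do not bind calcium. On the IL-10+ arrays its log2 level was 10.48, 10.43, 10.25, 10.73 and 11.19. It was 9.54, 9.68 and 10.34 on the IL-10- arrays, and 8.66 and 9.09 on the total B arrays. IL-10- replicate 5 lay above the lowest IL-10+ array, so the fractions overlapped, while both total B arrays lay below all 8 sorted arrays. The difference between the fractions was 0.76 ± 0.24 log2 (SE), and within pairs 2, 3 and 5 it was 0.88, 0.57 and 0.85.

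S100a11, or calgizzarin, which binds annexin A1 and takes part in membrane repair, followed S100a10. On the IL-10+ arrays its log2 level was 13.07, 13.10, 12.88, 13.11 and 13.89. It was 12.34, 12.13 and 12.98 on the IL-10- arrays, and 11.20 and 11.80 on the total B arrays. The fractions overlapped through IL-10- replicate 5, and total B cells again lay below every sorted array. The fractions differed by 0.73 ± 0.26 log2 (SE), with 0.76, 0.74 and 0.92 within pairs.

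S100a13, which takes part in the release of proteins that lack a signal peptide, came near background in total B cells. It read 7.46, 6.97, 6.70, 6.80 and 7.46 log2 on the IL-10+ arrays, 6.36, 6.45 and 6.76 on the IL-10- arrays, and 5.91 and 5.54 on the total B arrays, the last of which was not detected. The fractions overlapped and differed by 0.56 ± 0.21 log2 (SE). Against total B cells, S100a10, S100a11 and S100a13 were 3.34-fold, 3.27-fold and 2.55-fold higher in IL-10+ cells. The differences of IL-10- from total B cells were 0.98, 0.98 and 0.80 log2, in the same order.

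Anxa2 codes for the annexin that S100A10 binds, a membrane and actin linker that also takes part in plasminogen activation at the cell surface. On the IL-10+ arrays its log2 level was 10.60, 10.39, 10.0, 9.90 and 10.41. It was 7.65, 7.5 and 7.65 on the IL-10- arrays, and 9.17 and 8.38 on the total B arrays. Here total B cells lay between the fractions, with no overlap of the 3 groups. IL-10+ exceeded IL-10- cells by 2.66 ± 0.21 log2 (SE), or 6.31-fold, with 2.74, 2.49 and 2.75 within pairs. IL-10- cells were 2.26-fold lower than total B cells.

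Anxa4, an annexin of epithelial and secretory membranes, gave 7.92, 7.36, 7.46, 7.62 and 7.79 log2 on the IL-10+ arrays, 6.68, 6.95 and 6.78 on the IL-10- arrays, and 7.48 and 7.12 on the total B arrays. All IL-10+ arrays lay above all IL-10- arrays, and both total B arrays lay between the means of the fractions, replicate 1 within the IL-10+ range and replicate 2 below it. The difference between the fractions was 0.83 ± 0.16 log2 (SE). It rests on 1 of 3 probes, since the other probes were detected on 1 array or none.

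Anxa5, the annexin used as a probe for phosphatidylserine on dying cells, read 8.65, 8.54, 8.41, 8.69 and 9.37 log2 on the IL-10+ arrays, 7.40, 7.79 and 7.84 on the IL-10- arrays, and 7.82 and 7.46 on the total B arrays. IL-10+ cells stood above both other groups, which overlapped. IL-10+ cells exceeded IL-10- cells by 1.06 ± 0.21 log2 and total B cells by 1.10 ± 0.25 log2 (SE).

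Anxa6, a large annexin with a doubled core that scaffolds signalling and cholesterol traffic, read 8.44, 8.18, 8.03, 7.85 and 8.15 log2 on the IL-10+ arrays, 7.37, 7.57 and 6.73 on the IL-10- arrays, and 6.73 and 5.95 on the total B arrays. IL-10+ cells lay above both other groups, and IL-10- replicate 5 lay beside total B replicate 1. The difference between the fractions was 0.90 ± 0.23 log2 (SE), with 0.81, 0.46 and 1.42 within pairs. The other probes of the gene, 2 in number, were detected on no array.

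Anxa7, a membrane-fusion annexin that binds sorcin, had the smallest IL-10+ differences of the 9 by its brightest probe. It read 8.63, 9.10, 9.0, 8.61 and 8.60 log2 on the IL-10+ arrays, 8.54, 8.46 and 7.86 on the IL-10- arrays, and 8.74 and 8.47 on the total B arrays. Total B cells lay within the sorted range, and the fractions were separated by a narrow margin, at 0.50 ± 0.19 log2 (SE). A second detected probe gave 0.83 ± 0.21 log2 (SE) for the same comparison. Set against total B cells, IL-10+ cells differed by 0.18 and 0.66 log2 by these probes, and the arrays did not overlap by the second.

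**Figure D2:**
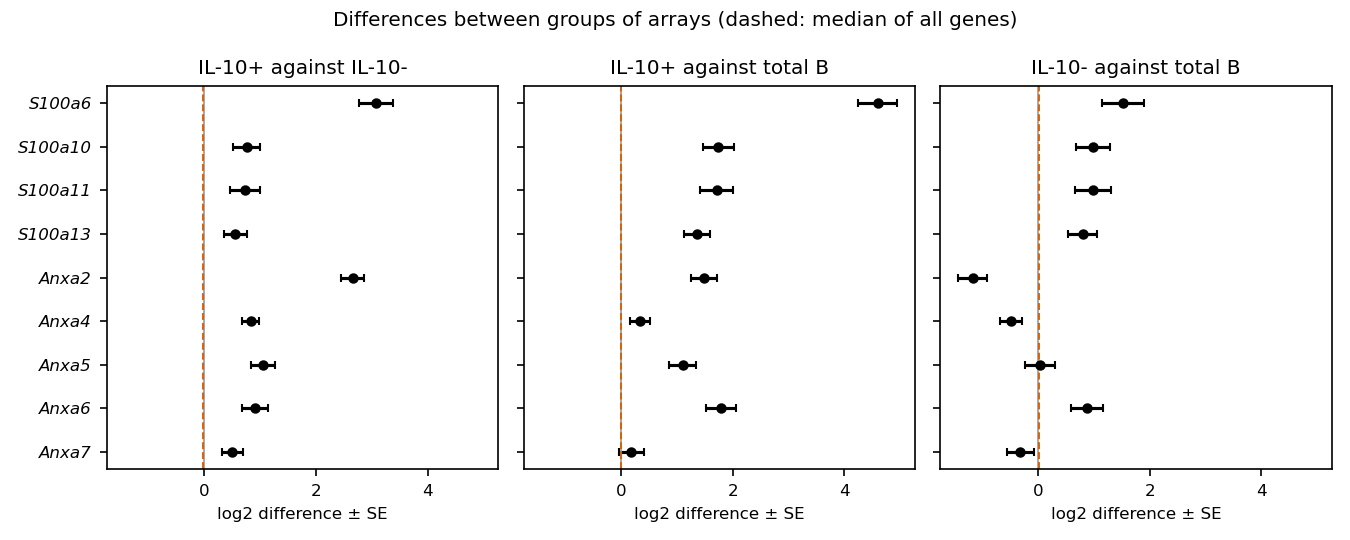
Log2 difference with its SE for the 9 genes in the fit in each comparison of groups, with the median of all genes as a dashed line. All 9 lie above 0 between IL-10+ and IL-10- cells, and Anxa2 lies at -1.18 between IL-10- and total B cells while S100a6 lies at 1.52, a fitted value against undetected arrays.

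Between IL-10+ and IL-10- cells, 5 of the 9 genes were called higher by limma at an adjusted p under 0.05 and none lower, against 9.12% of all genes called higher and 9.01% called lower. The 5 were S100a6, Anxa2, Anxa4, Anxa5 and Anxa6. With the replicate number as a block 7 were called, beside 11.9% of all genes. S100a10, S100a11 and Anxa7 then joined, and Anxa6, at 0.90 log2, did not pass, nor did it without IL-10- replicate 5. The arrays did not overlap for 6 of the 9, all of them higher, against 11.6% of all genes in that direction and 12.9% in the other. The median difference of the 9 was 0.83 log2, and that of all genes was -0.03. Median scaling put the median of all genes at 0.48 log2 and called all 9, with 2440 of all genes higher and 78 lower. The genes were listed with this comparison known, so nothing is read from these counts. All 27 within-pair differences of the 9 genes were above 0, from 0.25 to 3.26 log2, and all 18 within-slide differences were too. They come from the same arrays as the group means, so nothing is read from these signs either.

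Between IL-10+ and total B cells, 7 of the 9 were called higher and none lower, against 12.0% of all genes called higher, 10.4% called lower and 22.4% called in all. The arrays did not overlap for 7, all higher, against 21.4% of all genes higher and 21.7% lower. Anxa4 and Anxa7 were not called, at 0.33 ± 0.18 and 0.18 ± 0.22 log2 (SE, n = 5 and 2). The median of the 9 was 1.48 log2, also with S100a6 at its bound, and that of all genes was -0.01. Within slide 2, which held both total B arrays, the differences of S100a10, S100a11, Anxa6 and Anxa2 were 2.09, 2.0, 1.66 and 1.38 log2. The comparisons with total B cells share those 2 arrays. S100a11 was not called without total B replicate 1, nor Anxa5 without total B replicate 2.

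Between IL-10- and total B cells, S100a6 was called higher and Anxa2 lower, against 7.51% of all genes called higher, 6.04% called lower and 13.6% in all. The other 7 were not called, with differences from -0.49 log2 for Anxa4 to 0.98 for S100a10 and S100a11. Neither S100a6 nor Anxa2 was called without total B replicate 1, and S100a6 was not without total B replicate 2 either. Without IL-10- replicate 5, Anxa2 and Anxa6 were called and S100a6 was not. The arrays did not overlap for 4 genes higher and 2 lower, against 21.8% and 20.8% of all genes.

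The 9 genes thus fell in different orders of the group means. S100a6, S100a10, S100a11, S100a13, Anxa5 and Anxa6 ran from IL-10+ through IL-10- to total B cells, although the last 2 groups overlapped for Anxa5 and Anxa6. Anxa2, Anxa4 and Anxa7 ran from IL-10+ through total B to IL-10- cells, and the total B arrays of Anxa4 and Anxa7 overlapped those of IL-10+ cells. For Anxa7 they overlapped those of IL-10- cells too. Among the 9, both total B arrays lay below all sorted arrays after normalization for S100a6, S100a10, S100a11 and S100a13. Of all genes, 21.4% lay higher without overlap in IL-10+ than in total B cells, and 21.8% in IL-10- cells. Before normalization the IL-10- and total B readings of these genes overlapped. The lowest IL-10- readings were 462 for S100a10, 2720 for S100a11 and 147.8 for S100a13, and the highest total B readings 586.1, 2751.1 and 191.8. Both total B arrays of Anxa11, an annexin outside the 9, also lay below all sorted arrays after normalization, by a narrow margin. Its IL-10- mean, at 11.87 log2, was above its IL-10+ mean, at 11.32.

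IL-10+ replicate 5 was the highest IL-10+ array for 5 of the 9 genes, and IL-10- replicate 5 the highest IL-10- array for 6 of 9. Both arrays lay on slide 2. The IL-10+ arrays of slide 1 lay below those of slide 2 by 0.58 log2 for S100a10, 0.50 for Anxa5 and 0.49 for S100a6 and S100a11, and above them by 0.31 for Anxa7. With slide as a block, 8 of the 9 genes were called between the fractions, beside 21.4% of all genes.

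Likeness between genes was measured as the root mean square difference of log2 levels over the 10 arrays, each gene centred on its own mean, so that both shape and size of the differences count. The gene nearest to S100a10 among 11184 others was S100a11, at 0.12 log2, followed among named genes by Ptpn22, Pycard, Fut8 and Aopep at 0.17 to 0.22. S100a13 ranked 39, at 0.33. Anxa2, whose protein S100A10 binds, ranked 9570, at 1.0. Counted from Anxa2, S100a10 ranked 1121 at the same distance, so the rank depends on the gene from which it is counted. These ranks describe 10 arrays that share groups and slides.

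The named genes nearest to S100a6 were Zbtb32, a transcription factor, Tubb6, a tubulin, Lysmd2, the inhibitory receptor gene Ctla4 and Rab11fip4, at 0.47 to 0.63 log2. Those nearest to Anxa2 were Rbm47, the chemokine gene Ccl5, the Fc receptor-like gene Fcrl5, the costimulatory ligand gene Cd80 and Cibar1, at 0.36 to 0.44. The other 8 measured S100 and annexin genes lay farther from S100a6, from 1.26 log2 for Anxa2 to 1.88 for Anxa7.

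**Figure D3:**
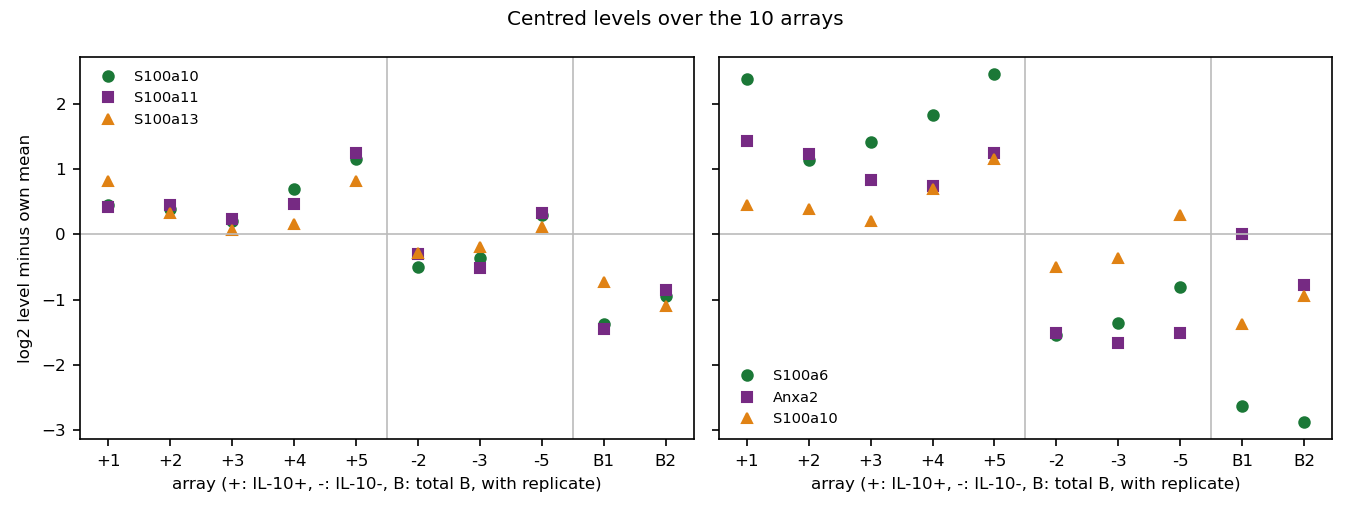
Log2 level of single genes on each array after subtracting the gene's own mean, with S100a10, S100a11 and S100a13 on the left and S100a6, Anxa2 and S100a10 on the right, and vertical lines between IL-10+, IL-10- and total B arrays. S100a10 and S100a11 nearly coincide, while Anxa2 in total B cells lies above its IL-10- level and S100a6 below.

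All 5 S100 genes of the set lie on chromosome 3, where S100a11 and S100a10 are next to each other, apart from the run that holds S100a13, S100a4 and S100a6 in the RefSeq annotation of GRCm38.p6. Of this run, S100a13, S100a14 and S100a6 were measured, and their fitted differences between the fractions were all above 0. S100a14, next to S100a13, had a fitted value of 0.45 log2 for IL-10+ against IL-10- cells, with a limma adjusted p of 0.308. Its probe stayed under the detection threshold throughout the IL-10- group, and passed it for 3 of the 5 IL-10+ samples. Raising values to the lowest detected signal per array gave -0.09 log2, so the direction for S100a14 is not settled. Ilf2, Snapin and Chtop, the 3 genes before S100a1, differed by -0.16, 0.15 and -0.12 log2, with limma adjusted p values of 0.449, 0.481 and 0.472. S100a8 and S100a9, which code for the calprotectin subunits of neutrophils and monocytes, were undetected on all arrays. The annexin genes lie on chromosomes 3, 6, 9, 11 and 14.

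**Figure D4:**
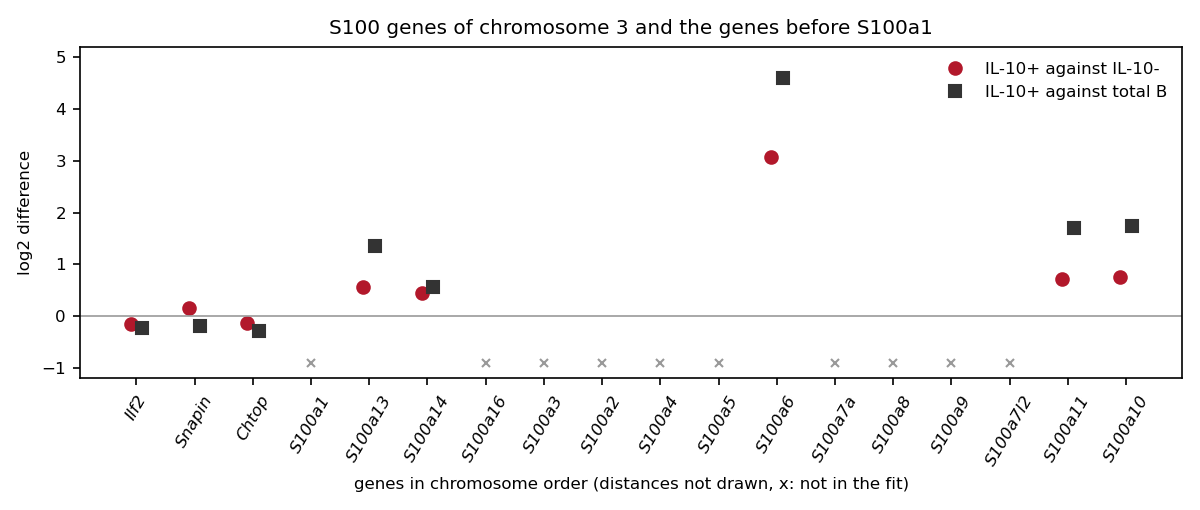
Log2 difference of IL-10+ from IL-10- cells (circles) and from total B cells (squares) for the S100 genes of chromosome 3 and the 3 genes before S100a1, in chromosome order with distances not drawn, and with many other genes between S100a7l2 and S100a11. Crosses mark genes that are not in the fit. S100a6 stands at 3.08 and 4.60, the latter a fitted value against undetected arrays, and Ilf2, Snapin and Chtop lie near 0.

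Of the other S100 and annexin genes, 18 had a probe and 5 entered the fit, while 11 were detected on no array. The 5 were S100a14, Anxa3, Anxa9, Anxa11 and S100pbp, the last of which codes for a binding protein and not for an S100 protein. Between IL-10+ and IL-10- cells limma called none of the 5, and none had an unadjusted p under 0.05, against 18.1% of all genes called in either direction. Anxa11, a vesicle and RNA-granule annexin, was 0.55 ± 0.36 log2 below (SE, adjusted p = 0.317), and Anxa3 0.63 ± 0.37 log2 above (SE, adjusted p = 0.259).

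Anxa3 fell against total B cells. On the IL-10+ arrays its log2 level was 5.19, 5.85, 6.33, 5.47 and 7.13. It was 5.30, 5.54 and 5.24 on the IL-10- arrays, and 7.96 and 7.39 on the total B arrays. Both total B arrays lay above every sorted array. IL-10+ cells were lower by 1.68 ± 0.42 log2 (SE, limma adjusted p = 0.0169), and IL-10- cells, where the probe was undetected, were at least 3.87-fold lower (limma adjusted p = 0.0116). Neither call held without total B replicate 1, with adjusted p values of 0.158 and 0.0963, or within slide 2. The call for IL-10+ cells was also lost without total B replicate 2 and with slide as a block, at an adjusted p of 0.0503. A second probe was detected on 1 of the 5 IL-10+ arrays and on no IL-10- array. Its fitted values for these comparisons were -1.46 ± 0.40 and -1.67 ± 0.43 log2 (SE), and they rest on undetected arrays. By this probe the IL-10+ and total B arrays overlapped.

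Of 15 measured genes for binding partners and receptors of S100 proteins and annexins, 3 rose and 1 fell between IL-10+ and IL-10- cells, beside 9.12% and 9.01% of all genes. Ahnak, a giant scaffold protein that binds the S100A10 and annexin A2 complex, rose by 1.55 ± 0.33 log2 (SE, limma adjusted p = 0.010) from a mean of 7.10 to 8.65. It also stood 2.14 ± 0.38 log2 higher in IL-10+ than in total B cells (SE, limma adjusted p = 0.00305). Both calls held whichever array was left out, at adjusted p values of at most 0.0380 and 0.0486, and within slide 2, with 2 IL-10+ arrays and 1 IL-10- array, the first difference was 1.48 log2 with an adjusted p of 0.150.

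Cacybp and Sugt1, whose proteins bind S100A6 in calcium-dependent fashion, rose by 0.46 ± 0.12 and 0.58 ± 0.17 log2 (SE, limma adjusted p = 0.0273 and 0.0380). Of the 8 fits that leave out an array, 5 and 6 did not call them, with adjusted p values up to 0.0903 and 0.140, both without IL-10- replicate 2, nor with the replicate block. Trp53, the tumour suppressor that S100A4 and other S100 proteins bind, fell by 0.61 ± 0.17 on the log2 scale (SE, limma adjusted p = 0.0299), and did not pass in 5 of 8 omissions, with up to 0.107 without IL-10- replicate 2, nor under median scaling, at 0.950.

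With total B cells as the reference, 3 partner genes rose and 1 fell in IL-10+ cells, and 1 rose and 1 fell in IL-10- cells. Of all genes 22.4% and 13.6% were called in these comparisons, so the partner counts lie near the background. Plgrkt, a plasminogen receptor, fell by 1.84 ± 0.28 and 1.48 ± 0.31 on the log2 scale in IL-10+ and IL-10- cells (SE, limma adjusted p = 0.00149 and 0.0143), and the second call was lost without total B replicate 1, at 0.129. Capn1, the large subunit of mu-calpain, rose by 1.18 ± 0.25 and 1.26 ± 0.27 log2 (SE, limma adjusted p = 0.00764 and 0.0159), neither of which held without total B replicate 1, at 0.0871 and 0.117. The second also failed without total B replicate 2, and the first had 0.0953 with the replicate block. Myh9, the non-muscle myosin that S100A4 binds, was called at 0.40 ± 0.13 log2 in IL-10+ cells (SE, limma adjusted p = 0.0454), but the call was lost whichever array was left out, reaching 0.242 without total B replicate 1.

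**Figure D5:**
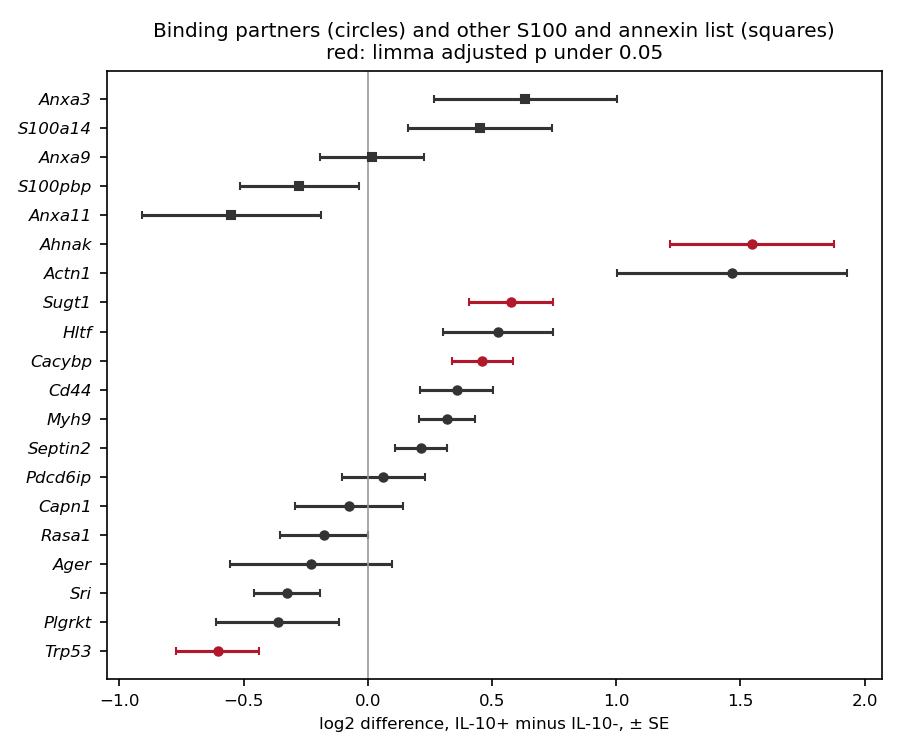
Log2 difference of IL-10+ minus IL-10- cells with its SE for 15 binding partner genes (circles) and 5 genes of the other S100 and annexin list (squares), S100pbp among them, with genes called by limma at an adjusted p under 0.05 in red. Ahnak, Sugt1, Cacybp and Trp53 are called, and none of the squares is.

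Of 26 measured genes for other calcium sensors and buffers, 3 rose and 1 fell between IL-10+ and IL-10- cells, with a median of 0.19 log2, and 18.1% of all genes were called. Capn2, the large subunit of m-calpain, was undetected on the IL-10- arrays and at least 1.85-fold higher in IL-10+ cells (limma adjusted p = 0.00231), a call that held under all 20 alternatives. Calu, a calumenin of the secretory pathway, rose by 0.44 ± 0.11 log2 (SE, limma adjusted p = 0.0194), but not without IL-10- replicate 2, at 0.0769, or with the replicate block. Capns1, the shared calpain small subunit, rose by 0.49 ± 0.14 log2 (SE, limma adjusted p = 0.0340). Ppp3ca, a calcineurin subunit, had means of 9.74, 10.76 and 9.54 log2 in IL-10+, IL-10- and total B cells. It was lower in IL-10+ than in IL-10- cells by 1.02 ± 0.29 on the log2 scale (SE, limma adjusted p = 0.0321), and was not called between IL-10+ and total B cells. Of the 8 fits that leave out an array, 6 and 4 lost these calls, reaching 0.105 for Capns1 when IL-10- replicate 3 was left out and 0.123 for Ppp3ca when IL-10- replicate 2 was, and both lost them with the replicate block.

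In IL-10+ cells set against total B cells, 5 sensors rose and 1 fell, and in IL-10- cells 3 rose, near the shares of all genes called, 22.4% and 13.6%. Esyt1, an extended synaptotagmin of membrane contact sites, rose by 0.95 ± 0.22 log2, and Ppp3r1, the calcineurin regulatory subunit, by 0.81 ± 0.20 log2 (SE, limma adjusted p = 0.0123 and 0.0154). Both were lost without either total B array. Hspa5 rose by 0.61 ± 0.17 log2 (SE, limma adjusted p = 0.0293). Rcn2, undetected in total B cells, was at least 1.04-fold higher (limma adjusted p = 0.0365). Each of these was lost in 5 of the 7 fits that leave out an array. In IL-10- cells Sdf4, a Golgi calcium-binding protein, rose by 0.86 ± 0.19 log2 (SE, limma adjusted p = 0.0182), and it was lost without either total B array. Hspa5 and Ppp3ca rose there by 0.68 ± 0.19 and 1.22 ± 0.36 log2 (SE, limma adjusted p = 0.0376 and 0.0469). They were lost in 5 and 4 of the 5 fits that leave out an array.

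S100 and annexin genes are also abundant in myeloid and plasma cells, so markers of these cells are given beside the differences. Of 10 myeloid markers, 7 were undetected on every IL-10+ array, among them Csf1r, Itgam, Lyz2, Cd14, S100a8 and S100a9. The summed level of the 10 ran from 2829 to 4159 normalized units on the IL-10+ arrays, from 1109 to 1867 on the IL-10- arrays and from 1174 to 1563 on the total B arrays. Of 3 measured myeloid markers, 1 was called between the fractions, beside 9.12% of all genes called higher. It was Mpeg1, which B cells also express, with a rise of 1.57 ± 0.26 log2 (SE, limma adjusted p = 0.00272). The other 2 were not called, and the median of the 3 was -0.06 log2. Of 5 measured plasma cell markers Jchain, Prdm1, Mzb1 and Xbp1 rose between the fractions, Mzb1 by 1.95 ± 0.23 and Xbp1 by 0.87 ± 0.16 log2 (SE, limma adjusted p = 0.000556 and 0.00429), while Sdc1 was undetected on all arrays. The fifth, Irf4, differed by -0.55 ± 0.17 log2 (SE, limma adjusted p = 0.0502), with all IL-10+ arrays below all IL-10- arrays, and its mean of 13.20 log2 in IL-10+ and 13.75 in IL-10- cells makes up a large share of the summed level. The summed level of 6 plasma cell markers was 17731 to 21581, 16058 to 19112 and 15336 to 18667 units in IL-10+, IL-10- and total B cells. B cell markers moved the other way from the S100 and annexin genes between the fractions. Of 5 measured, 3 fell and none was above 0, with a median of -0.71 log2. Cd22 fell by 1.28 ± 0.15, Cd79b by 0.75 ± 0.17 and Ms4a1 by 0.71 ± 0.12 on the log2 scale (SE, limma adjusted p = 0.000419, 0.0121 and 0.00307). The part of these marker shifts in the S100 and annexin differences was not tested.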

How the data were processed

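Expression was measured on Illumina MouseWG-6 v2 beadchips. Per the file headers, the deposited table holds mean bead intensity per probe, exported from GenomeStudio 1.9.0 with no normalization, and any earlier background subtraction is not stated there. The deposited table also holds the SD between beads and the count of beads (19 to 69 for the probes of the 10 genes, with a bead SE of 2.33% to 9.34% of the intensity), and a detection score, of which 1 minus the score served as detection p. The authors' second deposited table, of processed log2 values for which the submitters' processing notes name lumi, has probe identifiers that could not be paired with genes and was not used.

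The neqc function of limma 3.58.1, under R 4.3.3, corrected the background and quantile normalized the intensities (offset 16). A probe was kept when 2 or more arrays gave it a detection p under 0.01, which left 16496, and the brightest probe stood for each of 11185 genes. Names were matched to RefSeq symbols or synonyms of GRCm38.p6 for 16223 and 5706 of 30854 names. All 10 arrays entered a single limma fit, two-sided, and p-values were adjusted by Benjamini-Hochberg across the 11185 genes, with 0.05 as threshold. The fit was tested on simulated data. Against a group where a probe was undetected on every array, a fold is given as "at least", from the higher of the probe's value and the lowest detected signal per array.

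The 10 genes, the gene lists and the naming rule were chosen with earlier results of these data known. The rule took every listed gene. From the lists of other family genes, partners and sensors it took up to 4 called genes per comparison by smallest p. Where none was called it took the 2 with the smallest p. It also took the 5 genes nearest in profile to S100a6, S100a10 and Anxa2. Arrays of IL-10+ and IL-10- cells with the same number had correlated deviations from the group means (0.348 for replicate 2, 0.238 for 3 and 0.319 for 5, across genes), and the numbers in the titles were taken to pair them, although pairs also share a slide. On slide 2, IL-10+ replicate 4 and IL-10- replicate 5, which differ in number, gave 0.276. On slide 1, arrays of these groups with different numbers gave -0.02 to 0.06. Alternatives covered background, scaling, filter, probe choice, slide, samples, pairing and single arrays left out.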

Additional observations from a re-analysis of the deposited data

Results flagged for a closer look

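S100a11 on IL-10+ replicate 5, at 13.89 log2, stood apart from the other IL-10+ arrays, at 12.88 to 13.11, with a gap to the nearest array of 0.770 of the group's whole range, above the critical value of 0.71 for 5 samples. Among the 9 genes tested this way it was the only one past that value, and Anxa5 on the same array came close, at 0.707. Chance passes about 1 in 20 groups. Without this array 5 genes were called between the fractions, S100a6, Anxa2, Anxa4, Anxa5 and Anxa6 as before.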

How the results depend on the processing

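No called difference of the 9 measured genes changed sign under any alternative run. S100a6 and Anxa2 were called between IL-10+ and IL-10- cells under all 20, with 1.93 to 3.57 and 2.01 to 3.26 log2, Anxa5, Anxa4 and Anxa6 under 19, 18 and 16, and S100a10, S100a11, Anxa7 and S100a13 under 10, 5, 4 and 1. The lowest values of S100a6 and Anxa2 came without background correction, where S100a6 stood at 2.37 against total B cells and 0.44 between IL-10- and total B cells. Of 265 recomputed counts, 208 stayed within 1.5 times.

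Median scaling, which put the median of all genes at 0.48, 0.23 and -0.26 log2 in the comparisons of IL-10+ with IL-10-, IL-10+ with total B and IL-10- with total B cells, called 2440 genes higher and 78 lower in the first, against 1020 and 1008, 1314 in the second (1023 higher and 291 lower, against 1341 and 1160) and 599 in the third (99 higher and 500 lower, against 840 and 676). In it 9 listed genes, 7 partners and 12 calcium sensors were called. It called 3 calcium sensors against total B cells in IL-10+ cells, and 1 listed gene, 1 partner and 0 sensors in IL-10- cells (3 otherwise, by limma). Without background correction the sensors were 7 in the first comparison and 1 listed gene was called in the third. Without a detection filter the sensors were 3 in the second and 1 in the third.

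With the replicate block, 1331 genes and 1 sensor were called between the fractions and 789 genes and 1 sensor against total B cells, where the shared numbers are not known to pair samples. No paired analysis was possible between IL-10- and total B cells because they share 1 number. With slide as a block, 8 listed genes were called between the fractions, beside 21.4% of all genes. Between IL-10- and total B cells it called 4 listed genes and 2 other family genes, beside 10.7% of all genes. Within slide 1, 749 genes and 2 partners were called between the fractions, and within slide 2, 617 genes, 2 listed genes, 1 partner and 1 sensor. Within slide 2, 0 other family genes were called between IL-10+ and total B cells, and 1 partner between IL-10- and total B cells. In a fit of only IL-10- and total B cells, 430 genes, 1 listed gene, 1 partner and 1 sensor were called.

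Leaving out single arrays gave 1255 to 2020, 1015 to 2391 and 398 to 1551 genes in the comparisons, in the order above. The ranges were 5 to 6, 6 to 7 and 0 to 2 for listed genes, 0 to 0, 0 to 1 and 0 to 1 for other family genes, 1 to 4, 2 to 4 and 0 to 2 for partners, and 2 to 4, 0 to 4 and 0 to 4 for sensors. The lowest counts of all genes came without IL-10- replicate 2 in the first comparison and without total B replicate 1 in the others, where the remaining total B array borrows its spread from the sorted groups. Without total B replicate 2 they were 1272 and 506. Fits within slides, without an array or with only 2 groups hold fewer samples, and for the other shifts the cause was not tested. The authors' processed values were not run. Probes near background, such as S100a4, S100a13 in total B cells and S100a6 in total B cells, limit what the arrays can show.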
